A study of Mus musculus with 6 samples.

Results

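Type I interferon response genes were followed in inguinal white adipose tissue, which is fat that lies under the skin of the groin. The set holds 33 named genes, found in the expression table by matching symbols to its gene identifiers. They were named as a set with earlier results of these data known, so their shares are descriptions beside those of all genes. All 33 were found among the 25894 genes of the table, and all 33 were among the 22290 genes tested, whose mean over the 6 libraries reached 1. RNA sequencing covered 6 female C57BL/6N mice, given as 15 weeks old and fasted for 10 h before the tissue was taken. Of these, 3 mice had 8 weeks of sleep fragmentation followed by 2 weeks of sleep recovery (SF 8w-SR 2w, here fragmented, recovered mice 1 to 3), and 3 were controls (controls 1 to 3), for which the labels give no further treatment. Each library came from 1 mouse, so the spread within a group is a spread between animals. Recovered reads totalled between 15610201 and 19703569 in a library.

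Type I interferons are secreted proteins that warn cells of viral nucleic acid. Cytosolic and endosomal sensors start their production, and their receptor signals through a pair of Janus kinases to a complex that includes Stat2 and Irf9. This complex binds the interferon-stimulated response element, a short repeat in the promoters of target genes, and raises Irf7, antiviral effectors and the feedback inhibitor Usp18 together. In fat, adipocytes, macrophages, endothelium and lymphocytes can all respond, and a low level of the programme is present without infection.

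The response element is shown first, as a sequence found in the promoters of some of the members but not of all. RefSeq promoters (build GRCm38.p6), from 250 bases before to 50 after the annotated start, were matched for 23 of the 33 genes. The core of the element, GAAA followed by any 2 bases and GAAA again, searched on both strands with overlapping matches allowed, was present in 14 of these 23 genes and in 3.99% of all 27025 genes with a promoter in the table. On the opposite strand the same core reads TTTC, any 2 bases and TTTC. The sequences below are written 5′ to 3′ on the strand of the gene, with each match in capitals and everything else in lower case. The first is the whole stretch of 250 bases before the start of Isg15, where 3 matches overlap in a single run that begins 78 bases before the start.

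Isg15 (chr4:156200819-156201068, minus strand): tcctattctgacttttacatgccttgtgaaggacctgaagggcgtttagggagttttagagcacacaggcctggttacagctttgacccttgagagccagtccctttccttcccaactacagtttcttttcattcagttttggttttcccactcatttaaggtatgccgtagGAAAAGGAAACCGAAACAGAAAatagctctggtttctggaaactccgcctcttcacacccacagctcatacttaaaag

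Shorter windows show matches in genes that had higher mean values in fragmented, recovered mice (Ifit3, Ifit3b, Ifit1, Bst2 and Oas1a) and in genes that had lower ones (Rsad2, Trim30a and Gbp3), with up to 15 bases on each side.

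Ifit3 (chr19:34583358-34583431, plus strand): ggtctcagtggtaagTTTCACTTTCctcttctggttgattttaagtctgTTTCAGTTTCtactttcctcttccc
Ifit3b (chr19:34607754-34607827, plus strand): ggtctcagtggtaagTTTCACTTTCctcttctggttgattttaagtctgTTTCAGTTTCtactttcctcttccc
Ifit1 (chr19:34640770-34640828, plus strand): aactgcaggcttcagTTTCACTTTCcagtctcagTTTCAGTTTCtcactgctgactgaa
Bst2 (chr8:71537572-71537617, minus strand): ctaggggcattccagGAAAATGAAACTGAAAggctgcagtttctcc
Oas1a (chr5:120907526-120907560, minus strand): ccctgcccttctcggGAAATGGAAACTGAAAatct
Rsad2 (chr12:26456548-26456587, minus strand): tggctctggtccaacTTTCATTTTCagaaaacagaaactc
Trim30a (chr7:104465205-104465244, minus strand): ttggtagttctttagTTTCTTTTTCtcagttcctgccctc
Gbp3 (chr3:142559984-142560029, plus strand): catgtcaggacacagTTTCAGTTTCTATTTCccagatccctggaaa

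The Ifit3 and Ifit3b windows were the same in 74 of 74 bases. Genes with a match had differences of both signs. Of the 14 genes with a match 8 had higher and 6 lower mean log2 values in fragmented, recovered mice, with a median log2 difference of 0.05. The 9 genes with a promoter but no match in it split into 6 higher and 3 lower, with a median of 0.48. The 10 genes with no promoter to search split into 8 higher and 2 lower, with a median of 0.555. A match is a run of letters, not a measured binding site.

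The comparison asks which interferon response genes in fat differ between mice that had sleep fragmentation and then recovery and controls. It holds no mice taken before recovery. Isg15, Mx2, Zbp1, Ifit3, Irf7, Xaf1 and Bst2 had the largest positive differences, with group means between 1.8-fold and 4.14-fold higher in fragmented, recovered mice. Trim30a, Rsad2, Ifi27 and Ifi44 had the largest negative differences. By limma on log2(value + 1) with Benjamini-Hochberg adjustment over all 22290 genes, 0 of the 33 passed an FDR of 0.05, 0 higher and 0 lower, where 0% of all genes tested were called in either direction. The adjusted p of the members ran from 0.697 for Irf7 and others to 0.978 for Ddx58. The count tests on recovered reads, edgeR and DESeq2, also called 0 members.

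Of the 33 genes 22 had higher and 11 lower mean log2 values in fragmented, recovered mice, a share of 66.7% higher, where 51.6% of all genes tested were higher. The median log2 difference was 0.30 over the members and 0.02 over all genes tested. A positive difference of at least 0.5 was found in 15 members, or 45.5%, and in 25.3% of all genes. An unadjusted limma p under 0.05 was found for 5 members, all higher and making up 15.2%, where 3.24% of all genes tested had such a p and were higher, and 2.14% had one and were lower. These 5 were Isg15, Ifit3, Bst2, Mx2 and Irf7. On recovered reads 3 members had such a p by edgeR, all higher, beside 1.69% of all genes higher and 2.98% lower, and 6 by DESeq2, all higher, beside 1.68% and 2.9%. With the replicate number as a block in limma there were 10, all higher, beside 6.1% of all genes higher and 5.9% lower. The count was 0 without fragmented, recovered 1, without fragmented, recovered 2 or without control 3, where 1.58%, 1.55% and 1.14% of all genes had such a p and were higher. It was 8 without fragmented, recovered 3 and 1 without control 2, all higher. Without control 1 there were 9 higher and 1 lower. In these fits, in that order, 684, 512 and 5431 of the 22290 genes tested had such a p in either direction, against 1201 with all 6 mice. The counts without control 1 thus came with a rise across all genes, and shares by direction were not taken for these fits. For Ifit3, Oas2 and Mx2 the lowest fragmented, recovered mouse was above the highest control, which is 9.09% of the members beside 5.02% of all genes tested, and for 0 members the highest was below the lowest control, beside 3.58%. With 3 mice against 3, the smallest p that an exact permutation test of a single gene can give is 0.1 (two-sided).

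**Figure D1:**
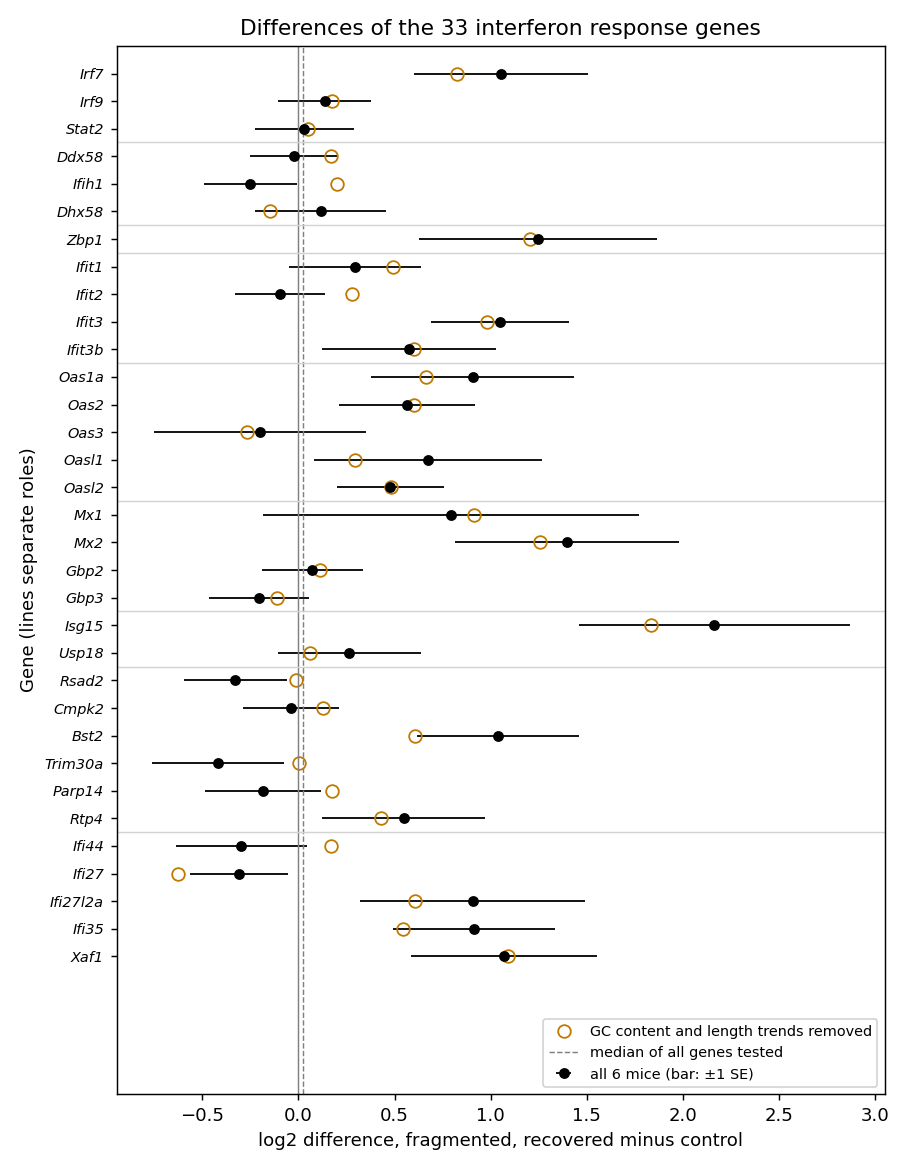
Log2 difference of each of the 33 genes, fragmented, recovered minus control, with bars of 1 SE on each side (n = 3 mice a group), grouped by role. Filled points use all 6 mice as deposited and open points are corrected for trends on GC content and length. Isg15 lies farthest to the right at 2.16, and Trim30a farthest to the left at -0.42.

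The median rested on particular mice. It was 0.04 without fragmented, recovered 2, 0.20 without control 3 and 0.23 without fragmented, recovered 1. It was 0.53 without fragmented, recovered 3, 0.45 without control 1 and 0.42 without control 2. In each of these fits between 20 and 26 members had higher values in fragmented, recovered mice. Leaving out 1 mouse moved the difference of 27 of the 33 genes by over 1.5 times or turned its sign, the others being Irf7, Ifit3, Ifit3b, Mx2, Isg15 and Bst2. The libraries also differed in how many genes were detected. Control 3 had 7201 genes at 0 and fragmented, recovered 2 had 2714, against 4022 to 5416 in the other libraries. The part of this difference in the members' values was not tested.

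The members differed among individual mice. Relative to a gene's own mean over the 6 mice, 23 members were above it in fragmented, recovered 1, 27 in fragmented, recovered 2 and 7 in fragmented, recovered 3, against 16, 15 and 9 in controls 1, 2 and 3. The median deviation was 0.34, 0.27 and -0.14 on the log2 scale in fragmented, recovered 1, 2 and 3, against -0.01, -0.03 and -0.35 in controls 1, 2 and 3. Fragmented, recovered 1 and 2 were high, and fragmented, recovered 3 lay between controls 2 and 3. Over all genes tested the medians stayed between -0.10 and 0.07. Fragmented, recovered 1 held the highest value of 14 members, or 42.4%, beside 18.8% of all genes. Control 3 held the lowest value of 15 members, or 45.5%, beside 21.3% of all genes.

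Each fragmented, recovered mouse was also set against the controls on its own. Fragmented, recovered 1 lay above all 3 controls for 17 members, or 51.5%, beside 25.3% of all genes, and fragmented, recovered 2 for 18, or 54.5%, beside 22.3%. Fragmented, recovered 3 lay above all 3 controls for 3 members, or 9.09%, beside 21.5% of all genes. Fragmented, recovered 1, 2 and 3 lay below all 3 controls for 3, 4 and 4 members, or 9.09%, 12.1% and 12.1%, beside 22.3%, 19.5% and 17.5% of all genes.

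**Figure D2:**
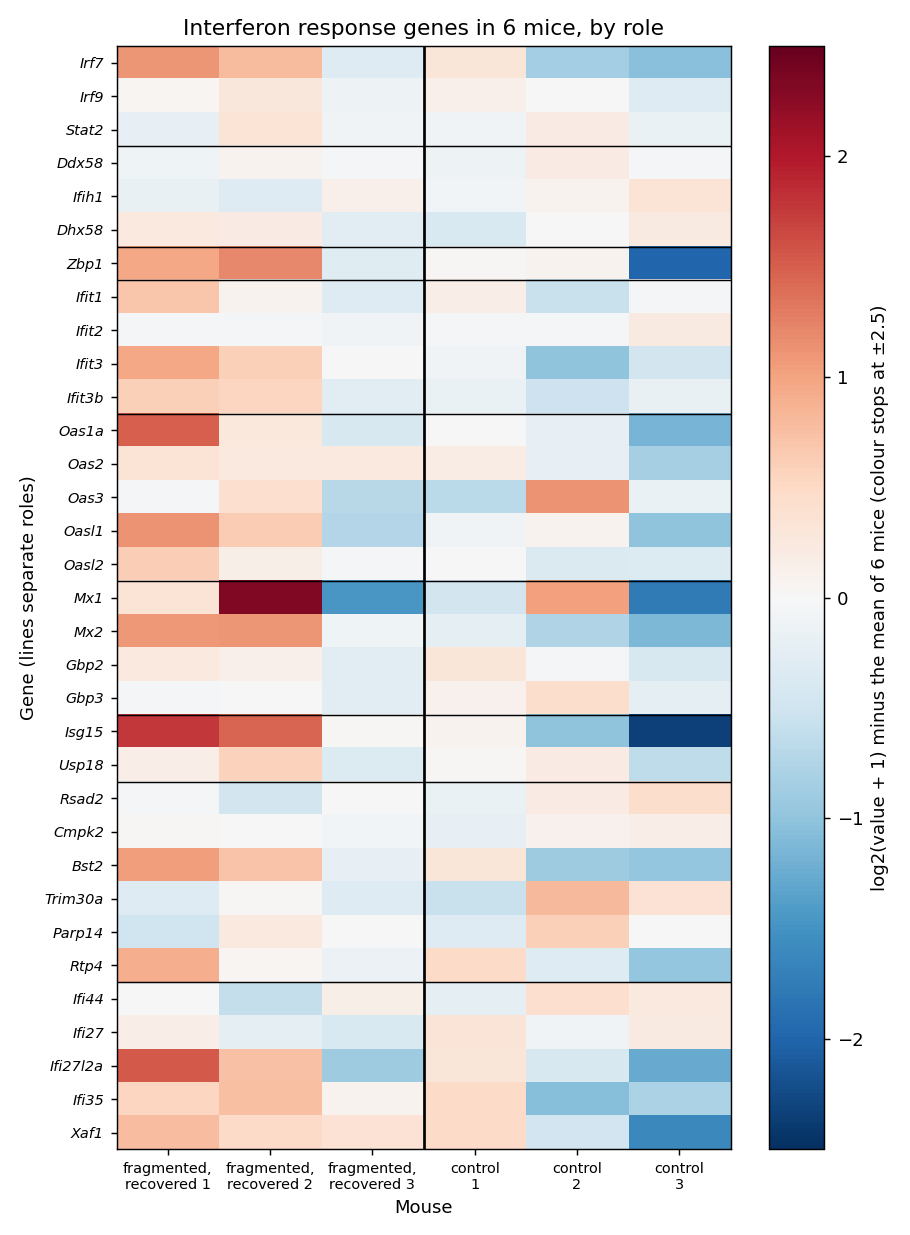
Deviation of each of the 33 genes from its own mean over 6 mice, in log2(value + 1), with 1 column per mouse and horizontal lines between roles. The columns of fragmented, recovered 1 and 2 hold most of the red cells, and the column of control 3 holds the deepest blue cells, those of Isg15, Zbp1, Mx1 and Xaf1.

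Among the transcription factors, Irf7, which drives the interferon genes themselves and is induced by interferon in turn, had the largest difference. Its values, in reads scaled by a size factor for each library, were 954, 765 and 356 in fragmented, recovered mice 1, 2 and 3, against 546, 245 and 215 in controls 1, 2 and 3. Fragmented, recovered 1 and 2 were above every control, and fragmented, recovered 3 was below control 1. The means were 692 ± 306 in fragmented, recovered mice and 335 ± 183 in controls (SD, n = 3 each), a log2 difference of 1.05 (SE 0.45) with a limma adjusted p of 0.697. Irf9, the DNA-binding subunit of the interferon-activated complex, had 809, 951 and 719.6 in fragmented, recovered mice 1, 2 and 3, against 851, 783 and 626 in controls 1, 2 and 3. Its groups overlapped, with a log2 difference of 0.14 (SE 0.24). Stat2, its partner, had 508, 743 and 551 in fragmented, recovered mice 1, 2 and 3, against 553, 677 and 520.2 in controls 1, 2 and 3, and its groups also overlapped, with 0.03 (SE 0.26). The difference of Stat2 had no steady sign, running from -0.13 to 0.14 as single mice were left out.

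The cytosolic RNA helicases that sense viral RNA had small differences. Ddx58, which encodes RIG-I, had a log2 difference of -0.02 (SE 0.23) and values between 717 and 899 in all 6 mice, the narrowest spread in the set after Ifit2. Ifih1, the sensor of long double-stranded RNA, had -0.25 (SE 0.24), and Dhx58, a helicase that modulates both sensors, had 0.12 (SE 0.34). Zbp1, a sensor of left-handed nucleic acid that can trigger cell death, had a larger difference. Its values were 284, 334 and 116 in fragmented, recovered mice 1, 2 and 3, against 148, 153 and 35.6 in controls 1, 2 and 3. Control 3 stood far below the others, and fragmented, recovered 3 was below controls 1 and 2. The log2 difference was 1.25 (SE 0.62), with a limma adjusted p of 0.697, and it was 0.56 without control 3.

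The IFIT proteins bind foreign RNA and block its translation, and their genes lie together on chromosome 19. Ifit3 had 557, 429 and 285 in fragmented, recovered mice 1, 2 and 3, against 265, 140.2 and 205 in controls 1, 2 and 3. Every fragmented, recovered mouse was above every control, although fragmented, recovered 3 at 285 was close to control 1 at 265. The means were 424 ± 136 in fragmented, recovered mice and 204 ± 62.6 in controls (SD, n = 3 each), 2.08-fold higher in fragmented, recovered mice, with a log2 difference of 1.05 (SE 0.36), an unadjusted p of 0.0159 and an adjusted p of 0.697 by limma. Ifit3b, its near copy, had 0.58 (SE 0.45). The 2 genes cannot be fully separated, since 51.2% of the distinct 50-base stretches of Ifit3 transcripts and 45.0% of those of Ifit3b also occur in transcripts of other genes, for Ifit3 those of Ifit3b. Ifit1 had 0.29 (SE 0.34), and 0.03 without fragmented, recovered 1. Ifit2 had -0.10 (SE 0.23), with values between 468 and 578 in all 6 mice.

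The OAS genes encode oligoadenylate synthetases, whose product activates a ribonuclease that degrades RNA. Oas2 had 217, 202 and 202 in fragmented, recovered mice 1, 2 and 3, against 194, 148 and 94.7 in controls 1, 2 and 3. The fragmented, recovered mice lay above all controls, by a margin of 202 over 194 at the nearest pair. The log2 difference was 0.56 (SE 0.35), with a limma adjusted p of 0.697, and it was 0.29 without control 3. Oas1a had 419, 178 and 111 in fragmented, recovered mice 1, 2 and 3, against 148, 128 and 65.7 in controls 1, 2 and 3, where fragmented, recovered 1 stood far above the rest and fragmented, recovered 3 lay below controls 1 and 2. Its log2 difference was 0.91 (SE 0.53), and 0.38 without fragmented, recovered 1. Reads of Oas1a are uncertain, since 57.6% of its 50-base stretches are shared with Oas1g and Oas1b. Oasl2, a family member with ubiquitin-like domains, had 641, 463 and 400.0 in fragmented, recovered mice 1, 2 and 3, against 414, 324 and 326 in controls 1, 2 and 3. Its groups overlapped at fragmented, recovered 3 and control 1, with a difference of 0.48 (SE 0.28), and 0.29 without fragmented, recovered 1. Oasl1, which in mice holds back translation of Irf7, had 0.68 (SE 0.59), and 0.29 without fragmented, recovered 1. Oas3, the largest of the synthetases, had -0.20 (SE 0.55).

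Among the antiviral GTPases, Mx2 had 75.7, 76.6 and 32.5 in fragmented, recovered mice 1, 2 and 3, against 29.8, 20.4 and 15.6 in controls 1, 2 and 3. All fragmented, recovered mice were above all controls, with 32.5 in fragmented, recovered 3 and 29.8 in control 1 as the nearest pair. The log2 difference was 1.40 (SE 0.58), with an unadjusted p of 0.0381 and an adjusted p of 0.697 by limma. The lowest value rested on 14 recovered reads. Mx1, whose coding sequence is disrupted in C57BL/6 mice, had 65.3, 259 and 18.1 in fragmented, recovered mice 1, 2 and 3, against 37.3, 105 and 14.5 in controls 1, 2 and 3. It was high in 1 mouse of each group, fragmented, recovered 2 and control 2, and its difference of 0.79 (SE 0.98) turned to -0.16 without fragmented, recovered 2. Gbp2 and Gbp3, guanylate-binding proteins that respond strongly to interferon gamma, had small differences. Gbp2 had 1271, 1179 and 904 in fragmented, recovered mice 1, 2 and 3, against 1338, 1060.3 and 819.9 in controls 1, 2 and 3, a difference of 0.07 (SE 0.26), and Gbp3 had -0.20 (SE 0.26).

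Isg15, a ubiquitin-like protein that is joined to other proteins and also secreted, had the largest difference of the 33 genes. Its values were 205, 166 and 61.4 in fragmented, recovered mice 1, 2 and 3, against 64.0, 29.4 and 11.1 in controls 1, 2 and 3. Fragmented, recovered 1 and 2 were above every control, and fragmented, recovered 3 at 61.4 was just under control 1 at 64.0, so the groups overlapped. The means were 144 ± 74.4 in fragmented, recovered mice and 34.8 ± 26.8 in controls (SD, n = 3 each), 4.14-fold higher, with a log2 difference of 2.16 (SE 0.70), an unadjusted p of 0.0124 and an adjusted p of 0.697 by limma. The difference lay between 1.54 without control 3 and 2.75 without control 1. Control 3 held 10 recovered reads of this gene. Usp18, which removes Isg15 from proteins and shuts down the receptor, had 219.8, 294 and 153 in fragmented, recovered mice 1, 2 and 3, against 200.4, 226 and 126 in controls 1, 2 and 3. Its groups overlapped, with a difference of 0.27 (SE 0.37).

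**Figure D3:**
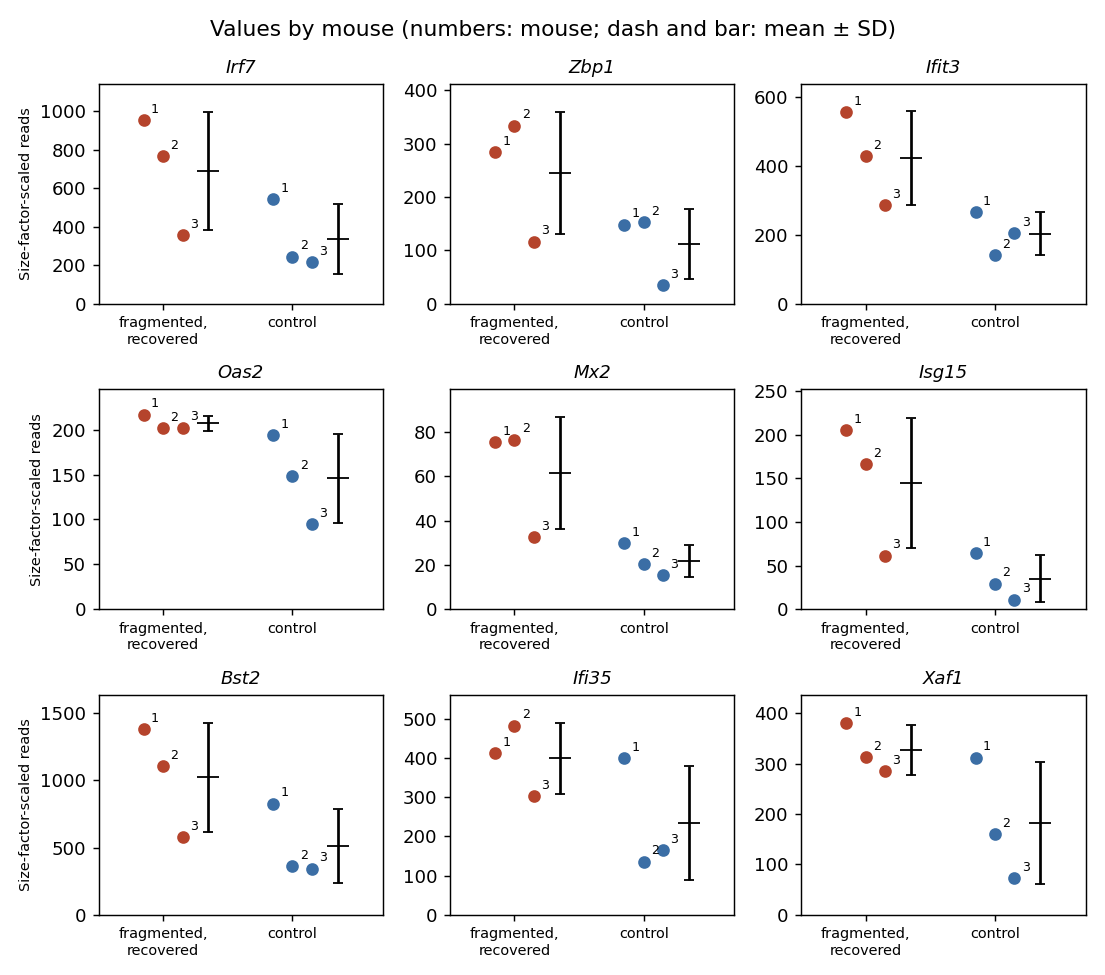
Size-factor-scaled reads of 9 genes in each mouse, fragmented, recovered mice on the left of each panel and controls on the right, with the mean and SD of 3 mice beside the points. In all 9 panels fragmented, recovered 1 and 2 are above control 3, and in Ifit3, Oas2 and Mx2 the groups do not overlap.

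Of the other antiviral effectors, Bst2, or tetherin, which holds budding virus at the cell surface, had 1381, 1104 and 579.6 in fragmented, recovered mice 1, 2 and 3, against 826, 361 and 343 in controls 1, 2 and 3. Control 1 was above fragmented, recovered 3, and the other controls were below every fragmented, recovered mouse. The means were 1022 ± 407 in fragmented, recovered mice and 509.9 ± 274 in controls (SD, n = 3 each), a log2 difference of 1.04 (SE 0.42) with an adjusted p of 0.697 by limma. Rtp4, a receptor-trafficking protein with antiviral activity, had 0.55 (SE 0.42), and 0.20 without control 3. Rsad2, or viperin, which makes a chain-terminating nucleotide, had -0.33 (SE 0.27), and its neighbour Cmpk2, a mitochondrial nucleotide kinase, had -0.04 (SE 0.25). Parp14, an ADP-ribosyltransferase, had 951, 1585 and 1332 in fragmented, recovered mice 1, 2 and 3, against 1079, 2030.1 and 1346 in controls 1, 2 and 3, and its groups overlapped, with a difference of -0.18 (SE 0.30). Trim30a, a tripartite-motif protein, had 651, 832 and 656 in fragmented, recovered mice 1, 2 and 3, against 561, 1443 and 1050.5 in controls 1, 2 and 3. Controls 2 and 3 were above every fragmented, recovered mouse and control 1 was below all of them, with a difference of -0.42 (SE 0.34).

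Among the other induced genes, Ifi27 and Ifi27l2a, which encode small hydrophobic proteins of the same family, had differences of opposite sign. Ifi27l2a had 6273, 3624 and 1171 in fragmented, recovered mice 1, 2 and 3, against 2678, 1659 and 909 in controls 1, 2 and 3. Fragmented, recovered 1 was highest, control 3 was lowest and fragmented, recovered 3 was below controls 1 and 2. The log2 difference was 0.91 (SE 0.58), and 0.37 without fragmented, recovered 1. Ifi27 had 6608, 5002 and 4571 in fragmented, recovered mice 1, 2 and 3, against 7392, 5575 and 6962 in controls 1, 2 and 3. The groups overlapped, with a difference of -0.31 (SE 0.25). These were the 2 most abundant members per length, at 6160.2 and 5873 scaled reads per kilobase of the longest transcript on average over 6 mice, followed by Bst2 at 967. Mx2, at 16.9, was the lowest of the 33.

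Ifi35, a leucine-zipper protein, had 413, 482 and 302 in fragmented, recovered mice 1, 2 and 3, against 399.7, 136 and 165 in controls 1, 2 and 3. Control 1 was above fragmented, recovered 3, and controls 2 and 3 were below all fragmented, recovered mice. The log2 difference was 0.91 (SE 0.42). Without control 1 Ifi35 passed the threshold at 1.38 (limma adjusted p = 0.0486), where 2.53% of all genes passed and were higher and 1.26% passed and were lower. Over the 6 fits that each left out 1 mouse its difference lay between 0.61 and 1.38, and over all alternatives tested its adjusted p by limma, edgeR or DESeq2 lay between 0.0486 and 0.976. Ifi35 shares 16.8% of its exon bases with a gene on the opposite strand, and the sources used here do not say whether reads were counted by strand. Xaf1, which antagonises an inhibitor of apoptosis, had 382, 313 and 285 in fragmented, recovered mice 1, 2 and 3, against 312, 161 and 72.4 in controls 1, 2 and 3. Controls 2 and 3 were below every fragmented, recovered mouse, and control 1 lay between fragmented, recovered 2 and 3. The difference was 1.07 (SE 0.48), and 0.53 without control 3. Xaf1 passed at 1.64 in limma-voom with quality weights on recovered reads (adjusted p = 0.0473), where 4.33% of genes passed and were higher and 2.01% passed and were lower. Its adjusted p over all alternatives tested ran from 0.0473 to 0.976. Ifi44, an interferon-induced protein of the cytoplasm, had -0.30 (SE 0.34).

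The base composition of the transcripts moved with these differences. The 33 genes were split at their median GC content of 49.4%. At or above it, 15 of 17 members had higher mean values in fragmented, recovered mice, or 88.2%, beside 67.8% of all genes tested with such a GC content. Below it, 7 of 16 were higher, or 43.8%, beside 36.3% of all such genes. The median log2 difference was 0.68 for the members at or above the median GC content and -0.03 for those below it, against 0.25 and -0.20 for all genes tested. When trends on GC content and transcript length were taken out of every library, the median of all 33 was 0.30, with 28 higher and 5 lower. The members then had medians of 0.55 at or above the median GC content and 0.19 below it, beside 0.04 and 0.05 for all genes. Isg15 then had 1.83, Mx2 1.25, Zbp1 1.20, Xaf1 1.09, Ifit3 0.98 and Irf7 0.83, while Bst2 had 0.60 and Ifi35 0.55. Ifi44, Ifih1, Ifit2, Parp14, Ddx58, Cmpk2 and Trim30a turned from negative to positive differences, and Dhx58 turned to -0.15. Ifi27 moved farther down, to -0.63, and was the 1 member that was lower at an unadjusted limma p under 0.05 in that fit, where 1.3% of all genes had such a p and were lower. Another 4 members had such a p and were higher, beside 2.46% of all genes. In that fit 0 members passed an FDR of 0.05 by limma.

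**Figure D4:**
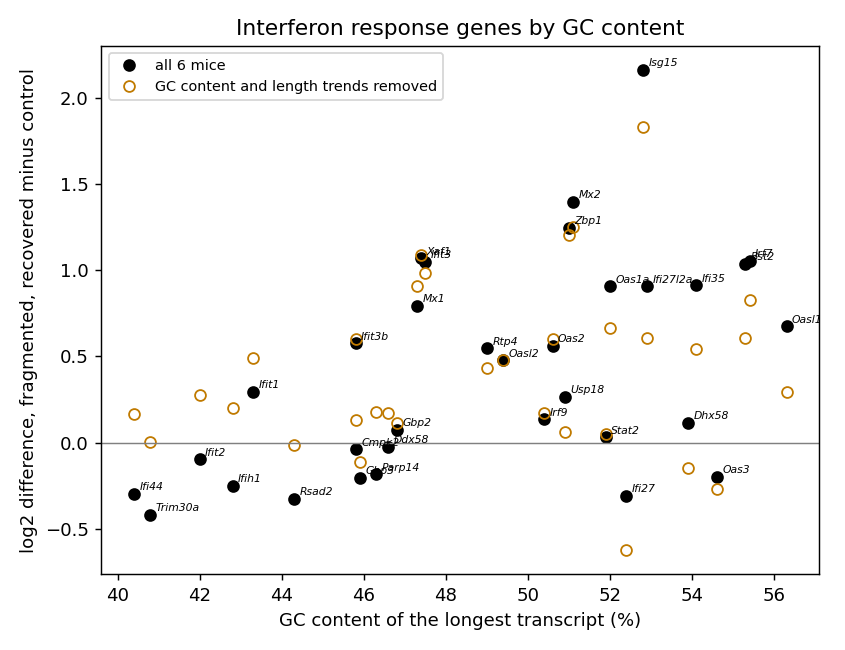
Log2 difference of the 33 genes, fragmented, recovered minus control, against the GC content of their longest transcript in percent. Filled points are as deposited and open points are corrected for trends on GC content and length. Most filled points on the left, below 49.4%, lie near or under 0 and rise in the open version.

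The adipose origin of the libraries was seen in Adipoq, at 46595, 22739.7 and 25254 in the fragmented, recovered mice, against 33936, 18669 and 17886 in the controls, and in Plin1, at 20619.9, 16785 and 15479 in the fragmented, recovered mice, against 17729, 13647 and 21415 in the controls. Markers of other cells that can express the members differed strongly among mice, and in bulk tissue fewer cells of a type and less RNA per cell cannot be told apart. The median deviation of 10 B and plasma cell markers was -2.94, 3.24 and -3.35 in fragmented, recovered 1, 2 and 3, against -3.56, 4.01 and 2.71 in controls 1, 2 and 3. Their summed level ran from 1846 to 34987 in fragmented, recovered mice and from 2140.1 to 86685 in controls. For 10 T and NK cell markers the summed level ran from 482 to 5411 in fragmented, recovered mice and from 731 to 4179 in controls. Both lists were high in fragmented, recovered 2, control 2 and control 3, whereas the interferon members were high in fragmented, recovered 1 and 2. The marker lists of neutrophils, conventional dendritic cells and lymph node stroma had their highest medians in the same 3 mice as the B cell list.

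Siglech, a marker of plasmacytoid dendritic cells, the main interferon producers of blood and lymphoid tissue, had 37.3, 295 and 23.5 in the fragmented, recovered mice, against 54.4, 599 and 328 in the controls. The 6 plasmacytoid markers had medians of -1.04, 1.82 and -1.49 in fragmented, recovered 1, 2 and 3, against -1.32, 1.73 and 0.53 in controls 1, 2 and 3. Pacsin1 of that list was at 0 in fragmented, recovered 1 and control 1. Klk1 was at 0 in fragmented, recovered 3 and control 1, and Cox6a2 in control 3. Cox6a2 was highest in fragmented, recovered 1, at 120, where Siglech was low, so the 6 markers did not move together. Tcf4 was far more abundant, between 2049 and 5046 in all 6 mice. The median deviation of 9 macrophage markers was highest in fragmented, recovered 1 and lowest in fragmented, recovered 3. The markers were split, since fragmented, recovered 1 held the highest value of 5 and control 3 that of 4. The summed level of the 9 lay between 6739 and 15064 in fragmented, recovered mice and between 9641 and 14714 in controls. The 7 skeletal muscle markers had medians of 6.28, 1.17 and -3.32 in fragmented, recovered 1, 2 and 3, against -0.03, 2.01 and -6.01 in controls 1, 2 and 3, with a summed level between 383 and 73582 in fragmented, recovered mice and between 182 and 9402 in controls. The 7 adipocyte markers had their highest median in fragmented, recovered 1, at 0.85. Their lowest medians were close, at -0.54 in control 3 and -0.47 in control 2. Control 2 held the lowest value of 4 of the 7 and the lowest summed level, 129730 beside 160650 in control 3. Control 3 held the lowest value of 1 and the highest of 2.

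Epithelial markers were low in controls 2 and 3, and those of keratinocytes also in fragmented, recovered 1. All 7 mammary epithelium markers had higher means in fragmented, recovered mice, 2 of them at an unadjusted limma p under 0.05, with a median log2 difference of 0.89. Their summed level was 24831, 33255 and 33140 in fragmented, recovered 1, 2 and 3, against 35730, 8466 and 10317 in controls 1, 2 and 3. All 7 skin keratinocyte markers also had higher means in fragmented, recovered mice, with a median of 0.65, and their summed level was 1337, 3064 and 3972 in fragmented, recovered 1, 2 and 3, against 3274, 1057 and 1366 in controls 1, 2 and 3. That median is the difference of Lor, which had at most 7.59 scaled reads in any mouse. Krt1 had at most 3.61, and 0 in controls 2 and 3. Like the summed mammary epithelium markers, Bst2, Irf7, Ifi35 and Xaf1 were lower in controls 2 and 3 than in the other 4 mice. The same held for Isg15, Mx2, Ifit3, Oas2, Oasl2 and Rtp4, and for no other member. The share of all genes tested with this pattern was not counted, so it cannot be called particular to the members. The remaining lists had median differences of -0.08 for 5 monocyte, 0.17 for 6 blood endothelium and -0.13 for 6 fibroblast and progenitor markers. The part of these cell types in the interferon values was not tested. With the B and plasma cell marker score as a covariate the members' median was 0.34, with 26 higher and 7 lower. Without fragmented, recovered 1 and control 2 it was 0.27, with 23 higher and 10 lower. Fragmented, recovered 1 and 3 against control 1, the mice low in B cell markers, had a median of 0.09, and fragmented, recovered 2 against controls 2 and 3, the mice high in them, had 0.51. These last medians are descriptions with 1 mouse on a side, and no score of another cell type was fitted.

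**Figure D5:**
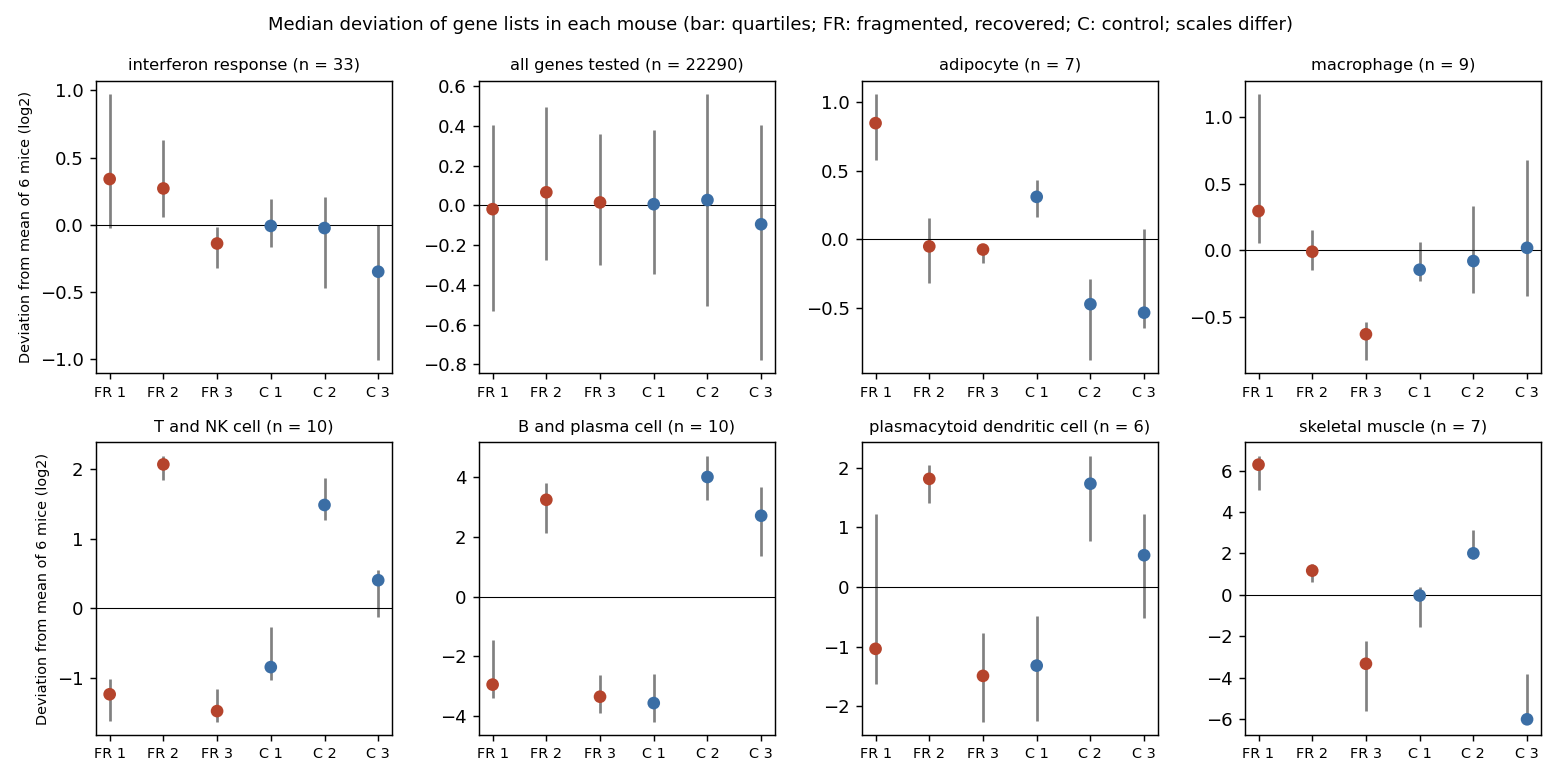
Median deviation of each gene list from its mean over 6 mice, in log2(value + 1), with bars for the quartiles over genes. Panels have their own scales. The interferon response genes are high in fragmented, recovered 1 and 2, whereas the B and plasma cell markers are high in fragmented, recovered 2 and controls 2 and 3.

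The rest of the interferon pathway was read from lists by role. Of 18 ligand genes only Ifne had a value to read, at or under 2.07 scaled reads in every mouse and below the filter. The other 17 symbols were looked up and matched no gene of the expression table. The receptor subunits had differences of opposite sign. Ifnar1 had 1037, 1164 and 985 in the fragmented, recovered mice, against 924, 1795 and 1810.2 in the controls, a difference of -0.45 (SE 0.30). Ifnar2 had 1166, 966 and 859.5 in the fragmented, recovered mice, against 959, 613 and 510.2 in the controls, a difference of 0.56 (SE 0.29). Both overlapped between groups, through control 1 for each gene. Of the kinases, Jak1 had 3772, 4623 and 3587 in the fragmented, recovered mice, against 3417, 7776 and 5857 in the controls, with a difference of -0.44 (SE 0.32). Tyk2 had 422, 739 and 424 in the fragmented, recovered mice, against 393, 622 and 560.3 in the controls, with -0.02 (SE 0.31). Both kinases overlapped between groups. Irf3, which starts interferon production, had 694, 754 and 459.6 in the fragmented, recovered mice, against 669, 429.5 and 269.6 in the controls, with 0.54 (SE 0.36).

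Across the 110 tested genes of these lists 53 had higher and 57 lower mean values, with a median of -0.02, and 0 passed an FDR of 0.05 by limma. At an unadjusted limma p under 0.05 there were 2 higher and 1 lower, or 1.82% and 0.909%, beside 3.24% and 2.14% of all genes tested. The fragmented, recovered mice lay entirely above the controls for 1 of the 110 and entirely below for 3, beside 5.02% and 3.58% of all genes tested. The 52 other interferon-stimulated genes tested had a median log2 difference of 0.04, with 27 higher and 25 lower. The 2 of them with such a p, 3.85% of these genes and so near the 3.24% of all genes, were Ifitm3 and Ifitm2, membrane proteins that block virus entry, named here after their values were seen. Ifitm3 had 4344, 1762 and 1924 in the fragmented, recovered mice, against 1939, 1198 and 853 in the controls, a difference of 0.96 (SE 0.40), and Ifitm2 had 1849, 795 and 1038 in the fragmented, recovered mice, against 1194, 219 and 113 in the controls, a difference of 1.89 (SE 0.73). Oas1b, an OAS relative, had 75.7, 122 and 65.9 in the fragmented, recovered mice, against 65.0, 47.5 and 43.5 in the controls, above all controls in every fragmented, recovered mouse, with 65.9 and 65.0 as the nearest pair and a difference of 0.72 (SE 0.45). Pnpt1, a mitochondrial exoribonuclease, had 392, 378 and 481 in the fragmented, recovered mice, against 544, 547 and 500.2 in the controls, below all controls in every fragmented, recovered mouse, with -0.35 (SE 0.24).

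The 28 genes of the interferon gamma arm had a median of -0.02, with 13 higher and 15 lower. Gbp7 had 699.8, 847 and 823 in the fragmented, recovered mice, against 928, 1751 and 1342 in the controls. Every fragmented, recovered mouse was below every control, with a difference of -0.72 (SE 0.28) and a limma adjusted p of 0.697. Gbp6, a related GTPase, had 214, 229 and 248 in the fragmented, recovered mice, against 293, 373 and 342 in the controls, and its groups did not overlap either, with -0.54 (SE 0.27). The 12 sensors and adaptors had a median of -0.15, and the 7 feedback inhibitors 0.06. The other interferon-stimulated genes were highest in fragmented, recovered 2 and control 2, with median deviations of 0.32 and 0.31, and lowest in control 1 at -0.24.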

How the data were processed

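CASAVA, HISAT2 2.0.5, featureCounts 1.5.0-p3 and the build mm8 are listed, with no role or order, in the submitters' processing notes. In the deposited table the signal of each gene is its read count over a divisor shared by the library: in units of the smallest nonzero entry, 100% of entries were whole within 0.02. Totals of these recovered reads ran from 15610201 to 19703569. Symbols came from an identifier table that left 33 identifiers unmatched. limma 3.58.1 (R 4.3.3) with an intensity trend was applied to log2(value + 1) of 22290 genes, those whose mean reached 1, a scale that understates changes of low genes. Adjustment was by Benjamini-Hochberg over all of them, at an FDR of 0.05. The size of the estimated differences was checked on simulated counts drawn independently for each gene. Such counts hold no differences among mice shared by many genes, so the check does not show how the test calls genes in these libraries. As alternatives, recovered reads were tested with edgeR 4.0.16 and with DESeq2 1.42.0. Other alternatives covered scaling, filters, pseudocount, block, left-out mice, the B cell score and removal of GC content and length trends by splines of 4 degrees of freedom, with both properties from the longest GENCODE M21 transcript. The members and lists were chosen with earlier results of these data known. Values in every mouse are given for members whose groups do not overlap, the 10 smallest p-values, the 5 highest means and 5 regulators, and of the pathway lists for genes without overlap and core genes, not all of which are reported here. The split by GC content was chosen after seeing the data. Coordinates are those of the RefSeq promoter table, not of mm8.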

Additional observations from a re-analysis of the deposited data

How the results depend on the processing

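The count of 0 members called by limma, with 5 at an unadjusted p under 0.05, was also 0 in edgeR (3 such) and DESeq2 (6 such), under the other scalings, filters and pseudocounts, at an FDR of 0.10 and with the replicate block. limma-voom with quality weights called 1 member, Xaf1, and 1023 genes in all, 699 higher and 324 lower. The smallest adjusted p of that fit was 0.0451. Leaving out 1 mouse at a time gave between 0 and 1 member (Ifi35, higher) and between 0 and 844 genes, of which 0 to 563 were higher and 0 to 281 lower. All calls of this kind came without control 1. The members' median lay between 0.044 and 0.53 as single mice were left out. Scaling by library size alone moved the median of all genes to 0.14 and that of the members to 0.41, with 25 of 33 higher.

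The replicate block left the median at 0.30 with 0 members and 0 genes called, and 10 members had an unadjusted p under 0.05, all higher, where such genes were 6.1% of all tested and higher, against 3.24% without the block. The correlations of same-numbered mice were 0.18, 0.39 and 0.04, so the numbers were not taken as pairs. Not every mouse correlated best with its own number, since fragmented, recovered 3 had 0.21 with control 1.

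Small differences changed sign under some settings, and the cause was not tested. With the B cell score as a covariate Ddx58 had 0.039, Oas3 0.16, Cmpk2 0.019 and Parp14 0.003. With GC content and length trends removed Ddx58 had 0.17, Ifih1 0.20, Dhx58 -0.15, Ifit2 0.28, Cmpk2 0.13, Trim30a 0.002, Parp14 0.18 and Ifi44 0.17. With library size scaling Ddx58 had 0.10, Ifit2 0.023 and Cmpk2 0.08, and in limma-voom Dhx58 had -0.071. Without fragmented, recovered 1 and control 2 Ddx58 had 0.12, Ifit1 -0.18, Oas3 0.28, Gbp2 -0.021 and Parp14 0.27. With single mice left out Cmpk2 ran from -0.15 to 0.031, Ddx58 from -0.089 to 0.073, Dhx58 from -0.048 to 0.28, Gbp2 from -0.11 to 0.25, Mx1 from -0.16 to 1.72, Oas3 from -0.58 to 0.32, Parp14 from -0.39 to 0.066 and Stat2 from -0.13 to 0.14. With 3 free bases between the GAAA repeats in place of 2, 5 of 23 genes had a match, against 14. Counts as low as 10 recovered reads, for Isg15 in control 3, limit the lowest values.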
